A study of Rattus norvegicus with 16 samples.

Results

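Livers of rats in phase 3 of a prolonged fast were compared with livers of rats in phase 2. The comparison took the 4 arrays labelled P3 and the 4 labelled P2, 8 of the 16 arrays of the series, and was made over all 13215 genes with a row of their own in the expression table. The animals were male Sprague Dawley rats, 1 array per rat, in 4 groups of 4: fed, fasted to phase 2 (P2), fasted to phase 3 (P3), and given food again for 2 days after a fast to phase 3 (P3r2). All groups share strain and sex and gave whole liver, frozen in liquid nitrogen, from which total RNA was labelled after depletion of ribosomal RNA. The fed and re-fed groups are used here for reference levels and for 1 comparison of their own. The sources used here give no ages, body weights, fasting times or sampling hours.

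In the second phase of a long fast the liver burns fatty acids, exports ketone bodies, and body protein is spared. The third phase begins when fat stores run low: muscle protein is broken down, its amino acids reach the liver, and their carbon becomes glucose and their nitrogen urea. Glucocorticoids and glucagon, which acts through cyclic AMP, are hormones known to drive gluconeogenesis, and insulin is known to oppose it. The comparison asks which liver genes separate these states.

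Values are log2 signals, so a difference of 1 log2 unit is a 2-fold difference. Differences are given as P3 minus P2 ± the standard error of a linear model (limma) with 4 arrays per group. A gene is called, and said to have risen or fallen, where its limma p-value adjusted over all rows tested was below 0.05. Of the 13215 genes 3632 were called, which is 27.5%: 2308 rose (17.5%) and 1324 fell (10.0%). By at least 2-fold 950 rose (7.19%) and 539 fell (4.08%). Falls ran deeper than rises, with 53 genes lower by at least 8-fold and 22 higher by as much. The median difference of all genes was -0.02, and these shares and this median are the background for every gene group below. The 4 P2 values and the 4 P3 values did not overlap in 3581 genes (27.1%).

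The arrays correlated at 0.972 to 0.984 within P2, at 0.966 to 0.987 within P3 and at 0.922 to 0.965 between the phases. The P3 livers were not equally far from P2. Of the 53 genes lower by at least 8-fold, P3 replicate 3 had the lowest P3 value in 44. In the 22 higher by at least 8-fold, replicate 4 had the highest in 12 and replicate 3 in 7. A very low or high P3 value itself helps a gene into these sets. Among all 2308 genes that rose, replicate 3 was the P3 liver nearest to P2 in 46.1%, replicate 2 in 43.0% and replicate 4 in 1.95%. Among all 1324 that fell, replicate 2 was nearest in 40.5% and replicate 3 in 22.5%. P3 replicate 3 and P2 replicate 4 also got the lowest array weights of the 8 (0.38 and 0.41). Without P3 replicate 3, 2610 genes rose and 1375 fell. The difference also ran with gene length: among the 2624 shortest genes 150 rose and 279 fell, and among the 2624 longest 511 rose and 173 fell. Across 13120 genes, which are not independent, the Spearman correlation of difference and length was 0.18. With that trend taken out of each array, 2355 genes rose and 1913 fell.

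The identity of the tissue was checked on markers. The 10 measured hepatocyte markers had a mean log2 signal of 12.14 to 12.28 in the P2 arrays and 11.41 to 11.96 in the P3 arrays. Among them Ttr, Asgr1, Asgr2, Ahsg and Alb fell, and the other 5, with Apob and Hnf4a, were not called. In whole liver, fewer cells of a type and less RNA per cell cannot be told apart. Of 13 Kupffer cell markers 1 rose (Mrc1) and 1 fell (Aif1). Of 10 stellate cell and fibroblast markers 1 rose: Dcn, decorin, by 2.44 ± 0.39. The mean of these 10 spanned 6.17 to 6.67 in P2 and 6.37 to 7.95 in P3, and Lum lay below the array median in both phases. Of 9 neutrophil markers 1 rose, Cxcr2. It was itself among the 7 of the 9, with S100a8, S100a9 and Mpo, whose means lay below the array median in both phases. Of 6 T and NK cell markers 2 fell (Gzma and Nkg7), and Nkg7 was not called under 12 of the settings tried. No endothelial (6), cholangiocyte (5), B cell (2) or erythroid (3) marker was called, nor any of the adipocyte (6) and muscle or pancreas (8) markers other than Cidec and Cela1, which fell. Of those not called, Cldn7, Cftr and Muc1 (cholangiocyte), Cd79b and Ms4a1 (B cell) and Epb42 and Hemgn (erythroid) also had means below the array median in both phases. So did Cd3d, Cd2 and Gzmb (T and NK), Clec4g (endothelial), Adipoq and Lep (adipocyte) and Tnnt3, Prss1, Cpa1 and Pnlip (muscle or pancreas). Their signal is not shown to be above background. The part of these cell types in the results was not tested.

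The largest falls included those of Car3, Bdh1 and Fabp1. Car3, the carbonic anhydrase that makes up much of the soluble protein of male rat liver, read 11.70, 11.45, 11.88 and 11.16 in the P2 livers and 4.71, 4.79, 4.38 and 3.92 in the P3 livers. All 4 P3 livers had come down to about the median signal of the whole array, which was 4.34 to 4.46. The fall was 7.10 ± 0.19 log2 units (adjusted p = 4.9e-12). The table gives no background level, so where the lower group lies near or below the array median its signal is not shown to be above background, and any difference or fold printed for such a gene is that of the signals only. Bdh1, the enzyme that makes 3-hydroxybutyrate, read 9.67, 9.37, 10.47 and 9.86 in P2 against 5.52, 5.11, 5.03 and 4.95 in P3. The P3 values were close to each other and lay 25.8-fold below P2 on average (-4.69 ± 0.19, adjusted p = 3.6e-10). Fabp1, the fatty acid binding protein of hepatocytes, read 11.52 to 11.78 in P2 and 7.37, 7.47, 4.27 and 5.77 in P3. Here the groups were far apart but the P3 livers differed among themselves by more than 3 log2 units, and the fall was 5.47 ± 0.49 (adjusted p = 2.0e-06). The same wide spread within P3 was seen in Hao1, glycolate oxidase (8.37, 8.49, 4.31 and 6.32), and in Rgn, regucalcin (7.53, 6.91, 3.80 and 5.45).

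The largest rises were in regulators and enzymes of other kinds. Gadd45b, a stress-induced regulator of growth arrest and demethylation, read 5.90, 6.24, 6.14 and 6.70 in P2 and 11.26, 11.24, 11.90 and 11.74 in P3. No P3 liver came within 4 log2 units of a P2 liver, and the rise was 39.3-fold (5.29 ± 0.17, adjusted p = 4.6e-11). Pptc7, a phosphatase of mitochondria, rose by 5.13 ± 0.18, Rdh16, a retinol dehydrogenase, by 4.72 ± 0.19, and Pvr, a cell adhesion receptor, by 3.71 ± 0.25. Coq10b, which handles coenzyme Q in mitochondria, rose by 3.77 ± 0.34. Slc13a5, the citrate importer of hepatocytes, was uneven among P2 livers (8.13, 6.17, 6.66 and 4.78) and read 9.44, 10.80, 10.85 and 9.02 in P3, a rise of 3.59 ± 0.61 (adjusted p = 4.8e-04).

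**Figure D1:**
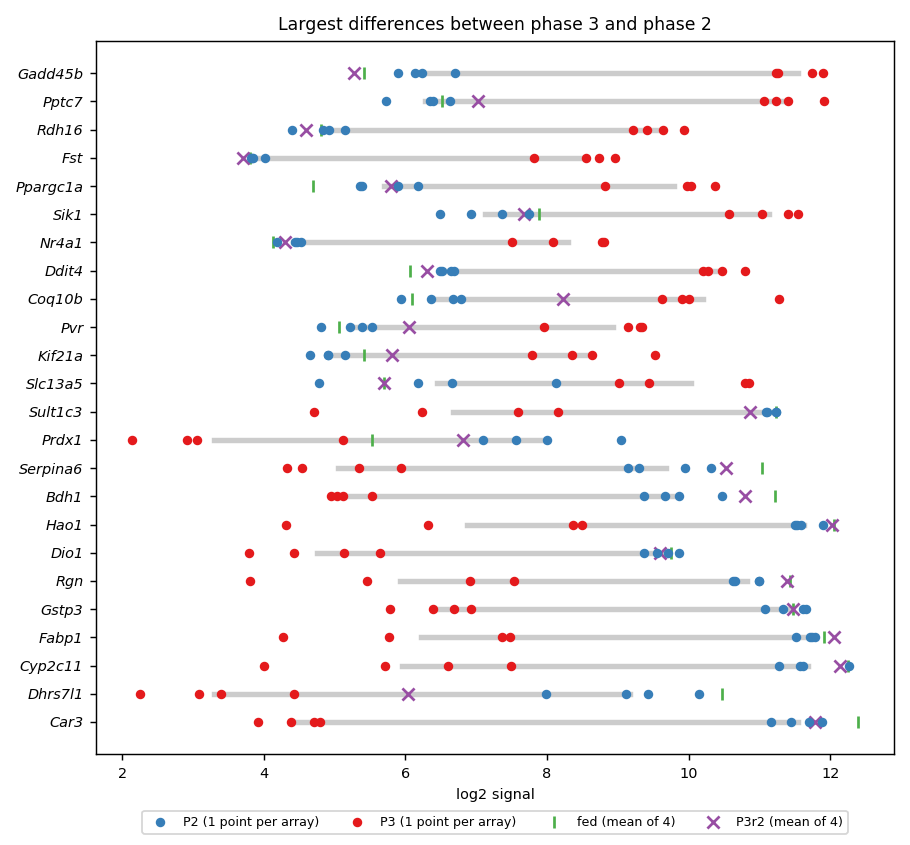
Log2 signal of the 12 genes that rose most and the 12 that fell most, 1 point per array for P2 (blue) and P3 (red), with the means of fed (green tick) and re-fed livers (purple cross) and a grey line joining the P2 and P3 means. P2 and P3 points do not overlap in any of the 24 genes, and the P3 points of Hao1, Rgn, Fabp1 and Cyp2c11 are spread over more than 3 log2 units.

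Genes of cyclic AMP signalling and regulators of gluconeogenesis leaned upwards in phase 3. Of 21 measured members 13 rose and 2 fell, with a median of 0.76. Ppargc1a, the coactivator of gluconeogenic and mitochondrial genes, read 5.90, 6.17, 5.39 and 5.36 in P2 and 10.37, 9.98, 8.82 and 10.03 in P3. Replicate 3 was the lowest of the P3 livers and still lay above every P2 liver, and the rise was 17.1-fold (4.10 ± 0.29, adjusted p = 2.1e-07). Sik1, a kinase that restrains the cyclic AMP coactivators, rose by 4.00 ± 0.25, and Nr4a1, an immediate early nuclear receptor, by 3.89 ± 0.24. Pde3b, which degrades cyclic AMP, rose by 1.99 ± 0.27. The glucagon receptor Gcgr fell by 1.83 ± 0.30 and Creb3l3, a liver transcription factor of fasting, by 1.14 ± 0.18. Creb1 itself was not called (-0.02).

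The promoters of the 3 genes with the largest rises among called genes that hold a full cyclic AMP response element are printed here to show where the element stands. Of the 3 only Ppargc1a is a member of the cyclic AMP list. Each is the stretch of 250 bases before the RefSeq start on GRCr8, written 5′ to 3′ on the gene's strand, with TGACGTCA in capitals: Ppargc1a at chr14:63634058-63634307 (+), Slc25a25 at chr3:36116582-36116831 (-) and Dusp1 at chr10:17184603-17184852 (+).
Ppargc1a: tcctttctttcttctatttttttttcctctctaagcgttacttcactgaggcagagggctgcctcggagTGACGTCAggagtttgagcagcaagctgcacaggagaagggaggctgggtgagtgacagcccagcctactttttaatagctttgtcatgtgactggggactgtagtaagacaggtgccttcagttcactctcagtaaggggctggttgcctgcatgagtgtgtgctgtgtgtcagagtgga
Slc25a25: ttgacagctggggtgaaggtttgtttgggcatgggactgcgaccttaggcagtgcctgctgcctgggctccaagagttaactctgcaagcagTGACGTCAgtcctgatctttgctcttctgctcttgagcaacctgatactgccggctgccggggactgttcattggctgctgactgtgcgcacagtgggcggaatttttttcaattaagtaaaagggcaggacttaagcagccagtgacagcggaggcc
Dusp1: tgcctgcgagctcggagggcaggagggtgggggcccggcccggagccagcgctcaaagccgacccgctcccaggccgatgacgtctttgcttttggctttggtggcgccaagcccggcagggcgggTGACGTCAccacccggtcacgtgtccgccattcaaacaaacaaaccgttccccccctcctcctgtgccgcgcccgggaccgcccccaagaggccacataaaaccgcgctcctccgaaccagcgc
The element starts 181, 158 and 124 bases before the start. Slc25a25, a mitochondrial carrier of ATP and magnesium, rose by 3.39 ± 0.25, and Dusp1, a phosphatase of MAP kinases, by 2.41 ± 0.28. A promoter was known for 10799 of the genes (81.7%), counted over 300 bases with the 50 after the start and on both strands. TGACGTCA stood in 2.44% of all promoters, in 3.50% of those of genes that rose and in 2.35% of those of genes that fell. Of the 16 promoters of the cyclic AMP list 1 held it (6.25%). In a shorter window, 100 bases before to 50 after the start, TGACGTCA stood in 1.64% of all promoters. There it stood in 2.16% for genes that rose, 1.62% for genes that fell and 0 of the 16. Its shorter part TGACG, which the full element contains, stood in 25.8%, 37.7% and 24.4% over the 300 bases. In the shorter window TGACG stood in 16.2%, 25.3% and 15.5%. Promoters of genes that rose also held more G and C (median 62.3%, against 58.0% for all and 58.3% for genes that fell), and more CpG pairs (24 against 16 and 16). The part of base composition in these shares was not tested.

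Glucocorticoid-responsive genes also leaned upwards: 14 of 26 rose and 2 fell, with a median of 1.19. Besides Gadd45b, Fst and Igfbp1, described with their own groups, Ddit4, an inhibitor of the growth kinase mTORC1, read 6.49 to 6.68 in P2 and 10.21, 10.47, 10.28 and 10.80 in P3. Both groups were narrow, and the rise was 14.5-fold (3.86 ± 0.18, adjusted p = 1.8e-09). The receptor gene Nr3c1 rose by 1.38 ± 0.24. Cyp17a1, a steroid hydroxylase, fell by 3.15 ± 0.38 and Angptl4, an inhibitor of lipoprotein lipase, by 2.46 ± 0.36. Members not called included Tsc22d3 (0.27), Sgk1 (0.68) and Pdk4 (0.30). The core of the glucocorticoid response element, ACANNNTGT, stood in 2.88% of promoters of genes that rose, 5.51% of those that fell and 5.17% of all. In the promoters of the glucocorticoid list itself it stood in 2 of 20 (10.0%). As given above, promoters of genes that rose held more G and C (median 62.3%, against 58.0% for all). The part of base composition in the shares of ACANNNTGT was not tested.

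Among plasma carriers the binding globulins of corticosteroids and thyroxine fell steeply, while Ttr (-0.93 ± 0.10) and Alb (-0.39 ± 0.08) fell by less. Serpina6, the corticosteroid-binding globulin, read 9.14, 9.95, 10.31 and 9.30 in P2 and 5.35, 4.54, 4.33 and 5.93 in P3. The groups were more than 3 log2 units apart at their closest, and the fall was 24.9-fold (-4.64 ± 0.33, adjusted p = 2.4e-07). Serpina7, the thyroxine-binding globulin, fell by 4.35 ± 0.50 (adjusted p = 1.7e-05), with mean signals of 5.31 in fed and 5.59 in re-fed livers. Dio1, the deiodinase that activates thyroxine in liver, read 9.55, 9.86, 9.71 and 9.37 in P2 and 5.13, 5.64, 3.79 and 4.43 in P3, a 29.3-fold fall (adjusted p = 6.7e-08). Thra (0.10) and Thrb (0.82), the thyroid hormone receptors, were not called.

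Insulin signalling genes rose in 13 of 23 cases, with a median of 0.94. The receptor gene Insr rose by 1.17 ± 0.21, and its substrates Irs1 by 1.22 ± 0.25 and Irs2 by 2.66 ± 0.27. Irs2 read 6.45, 6.63, 6.19 and 5.95 in P2 and 9.41, 9.07, 8.03 and 9.37 in P3, without overlap. Igfbp1, an insulin-repressed carrier of IGF peptides, stood at 10.33 to 10.88 in P2 and rose to 13.37 to 13.63 in P3 (2.84 ± 0.22, adjusted p = 5.1e-07). Its mean was 7.52 in fed and 5.59 in re-fed livers. Foxo1, a transcription factor restrained by insulin, rose by 1.07 ± 0.23. The kinases Akt1 (0.55) and Akt2 (0.19) were not called. The single faller of the list, Pdk1 (-0.90 ± 0.12), carries the symbol of pyruvate dehydrogenase kinase, not of the insulin pathway kinase Pdpk1, which rose by 1.11 ± 0.20.

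Genes of the growth hormone axis differed in both directions. Ghr, the growth hormone receptor, read 10.46, 10.41, 10.67 and 10.61 in P2 and 8.13, 7.97, 6.66 and 7.37 in P3. All P3 livers lay below all P2 livers, and the fall was 8.02-fold (adjusted p = 1.1e-06). Igfals, the subunit that holds insulin-like growth factors in plasma, fell by 3.36 ± 0.67, while Igfbp3, its partner in that complex, rose by 0.89 ± 0.20. Igf1 read 11.23, 10.80, 8.48 and 9.50 in P3, overlapping P2 (10.90 to 11.41). Its fall (-1.25 ± 0.42, adjusted p = 0.042) was -0.74 without P3 replicate 3 (adjusted p = 0.089). It was not called either without P2 replicate 1, 2, 3 or 4 or without P3 replicate 4. Socs3 (2.18 ± 0.58), a feedback inhibitor of cytokine receptors, rose. P2 replicate 4 stood apart at 2.49 from 5.31 to 5.73 in the other P2 livers, and without it the rise was 1.43. Of the 19 members 7 rose and 3 fell. With the P2 and P3 arrays fitted alone 2 rose, and with the spread of the array as covariate 5 fell. Socs2 (0.14) and Stat5b (0.23) were not called.

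Genes known to be higher in male than in female rat liver, a pattern set by pulsed growth hormone, fell in 10 of 11 cases with a median of -3.23. Cyp2c11, the main male steroid hydroxylase, read 12.26, 11.62, 11.57 and 11.28 in P2 and 7.49, 6.60, 4.00 and 5.71 in P3 (-5.74 ± 0.50, adjusted p = 1.8e-06). Gstp3, a glutathione transferase, fell by 4.98 ± 0.24, Cyp2c13 by 2.94 ± 0.39 and Cyp3a2 by 3.23 ± 0.53. Akr1b7 was the member not called (-0.14). Cyp2c12, the female counterpart of Cyp2c11, was not called either (-0.04). These enzymes belong to families with similar sequences, so signal of 1 member may hold signal of another.

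**Figure D2:**
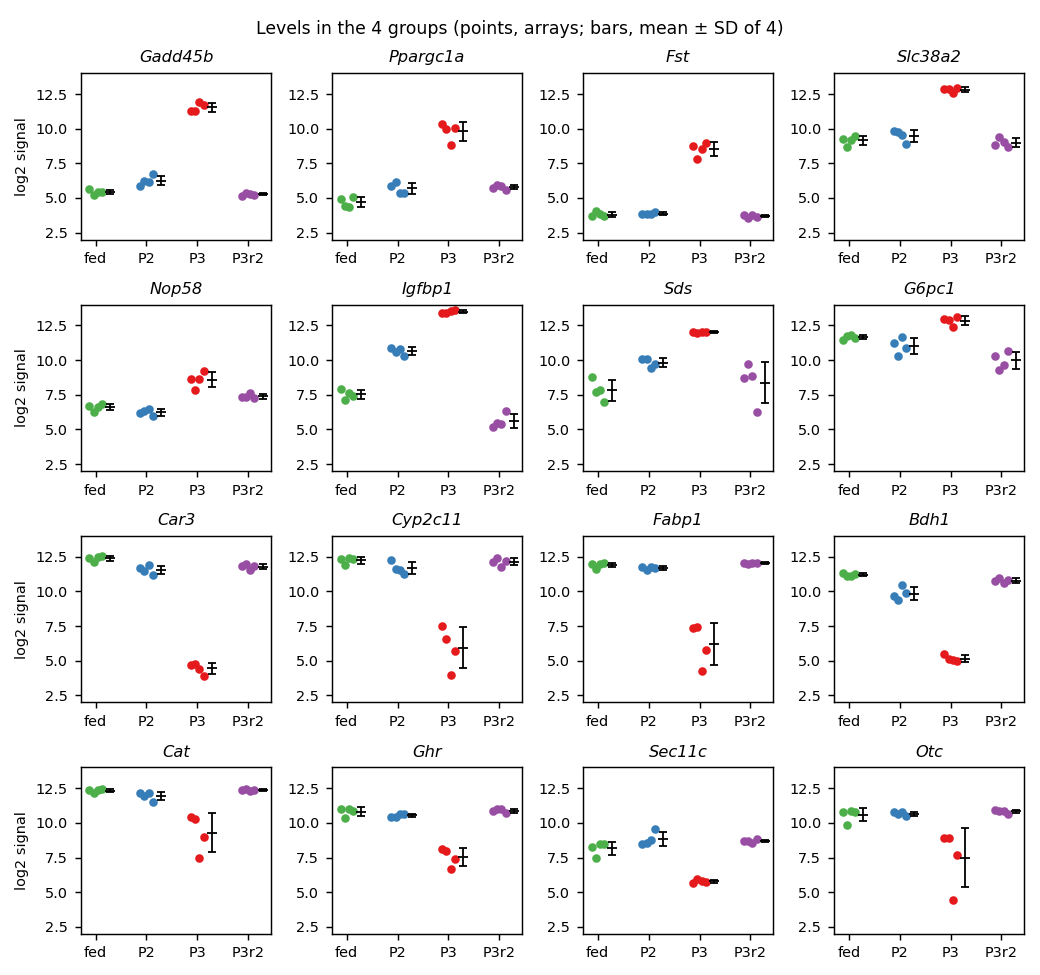
Log2 signal of 16 genes in the 4 groups of 4 livers, points for arrays and bars for mean ± SD. Gadd45b, Fst and Slc38a2 are high in P3 and near the same level in the other groups, Igfbp1 and Sds rise from fed to P2 to P3, Car3, Cyp2c11, Fabp1 and Cat are low in P3 with a wide SD in Cyp2c11, Fabp1 and Otc.

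Of 16 gluconeogenic enzymes 6 rose and 2 fell, with a median of 0.13. G6pc1, which releases free glucose, read 11.26, 10.31, 11.64 and 10.90 in P2 and 12.97, 12.89, 12.39 and 13.10 in P3. The lowest P3 liver was above the highest P2 liver, and the rise was 3.52-fold (adjusted p = 2.9e-04). Pck1, the entry enzyme, stood at 11.10 to 11.91 in P2 and 12.75 to 13.13 in P3. Its rise of 1.24 ± 0.35 (adjusted p = 0.018) was no longer called without P2 replicate 4 (adjusted p = 0.064), without P3 replicate 4 (0.051) or with array weights (0.054). With the P2 and P3 arrays fitted alone it was called. The re-fed livers, which share in the estimate of the spread, had an SD of 0.88, against 0.40 in P2 and 0.16 in P3. Got1, the cytosolic aspartate aminotransferase, rose by 2.05 ± 0.22 and Mdh1 by 0.97 ± 0.10. Of the enzymes that handle glycerol, Gk, glycerol kinase (-1.06 ± 0.21), and Gpd1, glycerol-3-phosphate dehydrogenase (-1.58 ± 0.26), fell. Pc, pyruvate carboxylase, was not called (-0.12).

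Amino acid breakdown was split, with 17 of 50 enzymes higher, 13 lower and a median of -0.07. Sds, serine dehydratase, read 10.09, 10.07, 9.41 and 9.71 in P2 and 11.96 to 12.06 in all P3 livers. The P3 livers were almost equal, while the fed mean was 7.81, and the rise was 2.21 ± 0.54 (adjusted p = 0.0073). Cbs, cystathionine synthase, rose by 1.75 ± 0.21, Dbt, a subunit of the branched-chain ketoacid dehydrogenase, by 1.51 ± 0.14, and Tat, tyrosine aminotransferase, by 1.24 ± 0.16. On the other side Agxt2, an aminotransferase of mitochondria, fell by 2.48 ± 0.37, Kmo, of tryptophan breakdown, by 1.65 ± 0.34, and Bckdhb, another subunit of the branched-chain complex, by 1.20 ± 0.25.

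In the urea cycle 5 of 7 genes rose and 1 fell. Asl, argininosuccinate lyase, stood at 11.42 to 11.88 in P2 and 12.94 to 13.18 in P3, a 2.71-fold rise (adjusted p = 2.7e-06). Slc25a15, the mitochondrial ornithine carrier, rose by 1.72 ± 0.13, Arg1, arginase, by 0.79 ± 0.11, Cps1, which fixes ammonia, by 0.56 ± 0.10 and Ass1 by 0.51 ± 0.10. Otc, ornithine transcarbamylase, read 10.47 to 10.77 in P2 and 8.94, 8.92, 4.43 and 7.70 in P3. All P3 livers were lower, by amounts from below 2 to above 6 log2 units, and the mean fall was 3.17 ± 0.69 (adjusted p = 0.0033).

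Amino acid carriers rose in 11 of 32 cases and 1 fell, with a median of 0.19. Slc38a2, the sodium-coupled importer of small neutral amino acids, read 9.80, 9.74, 9.52 and 8.86 in P2 and 12.89, 12.88, 12.55 and 12.97 in P3, a 10.1-fold rise (adjusted p = 8.6e-08). Slc1a4, another neutral amino acid carrier, rose by 3.25 ± 0.36, Slc16a10, for aromatic amino acids, by 2.54 ± 0.19, and Slc1a2, for glutamate, by 2.60 ± 0.37. Slc3a2, the shared heavy chain of several carriers, rose by 2.21 ± 0.16, but its partners Slc7a5 (-0.09) and Slc7a11 (0.01) were not called. Slc6a13, a carrier of betaine and GABA, fell by 3.21 ± 0.40.

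Genes of the integrated stress response, the program of the transcription factor ATF4 in amino acid shortage and other stress, rose in 9 of 21 cases and fell in 4. Atf4 rose by 1.00 ± 0.16. Chac1, which degrades glutathione, read 5.26 to 5.79 in P2 and 7.24, 8.76, 9.01 and 9.30 in P3 (3.07 ± 0.32, adjusted p = 7.2e-06). Ppp1r15a, the phosphatase subunit that ends the response, rose by 2.24 ± 0.17 and Atf3 by 2.62 ± 0.22. The serine and cysteine synthesis members went the other way: Psph fell by 1.14 ± 0.22 and Cth by 0.96 ± 0.18, while Phgdh (-0.21) and Psat1 (-0.52) were not called. Ddit3 (-0.11) and Fgf21 (-0.62), stress outputs of the pathway, were not called. Aminoacyl tRNA synthetases rose in 10 of 13 cases with none called lower, and the largest rise was that of Qars1 (1.37 ± 0.23). Lars1 (0.99 ± 0.29) was not called without P2 replicate 4, P3 replicate 1 or P3 replicate 4.

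Ribosome biogenesis was the list with the largest share of members that rose: 43 of 53, with none lower and a median of 1.43. The members span the whole path. Among the RNA polymerase I genes, Polr1b (1.88 ± 0.26), Polr1c (1.57 ± 0.22) and Polr1a (1.27 ± 0.27) rose, with the initiation factor Rrn3 (1.51 ± 0.23). In the small subunit processome Wdr43 (2.37 ± 0.20) and Utp4 (2.21 ± 0.23) led. In the snoRNA particles Nop58 read 6.16, 6.36, 6.49 and 5.94 in P2 and 8.65, 7.87, 8.60 and 9.22 in P3, without overlap (5.1-fold, adjusted p = 3.7e-06). Myc, a transcription factor known to drive these genes, read 5.29 to 6.30 in P2 and up to 9.06 in P3, without overlap (2.96 ± 0.32, adjusted p = 1.1e-05). Of the 54 listed genes of the ribosomal proteins themselves only 17 had a row of their own. Among these 17, 2 rose, Rpl13 (0.48 ± 0.12) and Rpl23 (0.34 ± 0.09), and the median was -0.03. Neither of the 2 was called after quantile normalization. Rpl4, Rpl7 and Rpl11 were among those with means below the array median in both phases, so their signal is not shown to be above background. For Ncl, nucleolin (2.29 ± 0.43), P2 replicate 4 stood low at 5.46 against 7.29 to 7.59.

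The E-box CACGTG, the letters that MYC and clock proteins are known to bind, stood in the promoters of 14 of 46 ribosome biogenesis genes (30.4%), against 8.09% of all promoters, 12.1% for genes that rose and 7.94% for genes that fell. In the shorter window of 100 bases before to 50 after the start it stood in 26.1% of the 46 and in 4.78% of all. The 46 promoters also held more CpG pairs (median 24, against 16 for all), and CACGTG contains such a pair. TGACG, which contains one too, stood in 54.3% of the 46 and in 25.8% of all. The part of base composition in these shares was not tested. The promoters of the 2 members with an E-box that rose most are shown, 250 bases before the RefSeq start on GRCr8, with CACGTG in capitals: Utp4 at chr19:51701991-51702240 (+) and Utp20 at chr7:25102850-25103099 (-).
Utp4: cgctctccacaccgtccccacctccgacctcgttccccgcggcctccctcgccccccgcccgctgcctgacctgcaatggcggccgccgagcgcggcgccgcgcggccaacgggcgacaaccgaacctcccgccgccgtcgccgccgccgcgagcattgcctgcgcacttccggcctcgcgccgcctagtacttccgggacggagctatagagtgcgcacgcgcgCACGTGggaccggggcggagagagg
Utp20: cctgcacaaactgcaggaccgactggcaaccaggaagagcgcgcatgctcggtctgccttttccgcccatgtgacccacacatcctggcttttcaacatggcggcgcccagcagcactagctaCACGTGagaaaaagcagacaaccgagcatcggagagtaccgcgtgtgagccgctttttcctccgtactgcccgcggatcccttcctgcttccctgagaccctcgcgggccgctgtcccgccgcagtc
The E-box starts 25 and 127 bases before the start. Utp20, a scaffold of the small subunit processome, rose by 1.97 ± 0.26. A match is a description of these letters and no measure of binding.

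**Figure D3:**
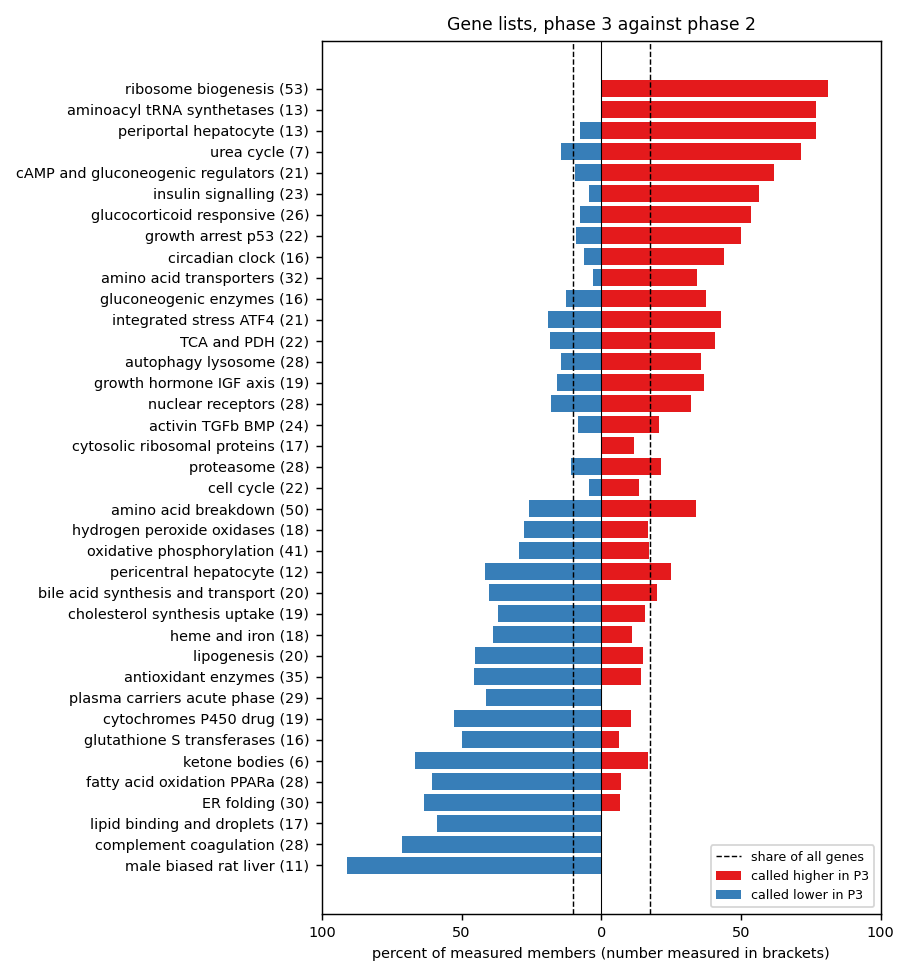
Share of the measured members of each gene list called higher (red, right) or lower (blue, left) in P3 than in P2, in percent, with the number measured in brackets and dashed lines at the shares over all genes (17.5% and 10.0%). Ribosome biogenesis and tRNA synthetases have no member called lower, and complement and coagulation, lipid binding, plasma carriers and male-biased genes have none called higher.

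Genes of fatty acid oxidation leaned downwards. Of 28 measured genes 17 fell and 2 rose, with a median of -0.62. The 2 that rose were Cpt1a, the gate of fatty acids into mitochondria (1.34 ± 0.30), and Ppara, the nuclear receptor of the pathway (1.29 ± 0.29). Hadh, of the third step of the cycle, read 11.53 to 11.85 in P2 and 9.48, 9.47, 7.23 and 8.05 in P3, an 8.68-fold fall (adjusted p = 1.9e-05). Crot, of peroxisomal export, fell by 3.04 ± 0.32, Decr1, for unsaturated fatty acids, by 2.51 ± 0.27, and Acadm, the medium-chain dehydrogenase, by 1.34 ± 0.19. Acadvl (0.29) and Cpt2 (0.25) were not called.

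Among ketone body genes 4 of 6 fell and 1 rose. After Bdh1 the falls were small: Bdh2 (-0.94 ± 0.18), the carrier Slc16a7 (-0.78 ± 0.22) and Acat1 (-0.59 ± 0.18). Without P2 replicate 1, P3 replicate 3 or P3 replicate 4 only 2 of the 4 were called. Slc16a6, a monocarboxylate carrier, rose by 2.13 ± 0.26.

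Proteins that bind or store lipid fell in 10 of 17 cases and none rose. G0s2, the inhibitor of adipose triglyceride lipase, read 8.72, 8.46, 9.68 and 10.06 in P2 and 4.79 to 5.03 in P3, so that all 4 P3 livers were alike and far below P2 (19.8-fold, adjusted p = 4.4e-07). Plin2, which coats lipid droplets, fell by 2.02 ± 0.22. Cidec, which fuses them (-1.70 ± 0.25), fell too, and Lipc, hepatic lipase, fell by 1.97 ± 0.29. Lipogenic genes fell in 9 of 20 cases and rose in 3. Fads2, the delta-6 desaturase, was 18.4-fold lower (-4.20 ± 0.37) and Thrsp, a thyroid hormone responsive regulator, read 10.50 to 10.89 in P2 and 7.68 to 8.08 in P3 (-2.87 ± 0.14, adjusted p = 2.1e-09). Lpin1, a phosphatidate phosphatase and coactivator, rose by 2.69 ± 0.41. Without P3 replicate 3, 5 lipogenic genes rose. Scd, already down to 4.19 to 4.93 in P2 from a fed mean of 12.16, was not called (0.89 ± 0.42), with 1 P3 liver at 7.40.

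Sterol synthesis genes fell in 7 of 19 cases and rose in 3. Nsdhl (-2.22 ± 0.22) and Tm7sf2 (-1.56 ± 0.22), which work on the sterol ring, fell. Insig1, the retention factor of the sterol sensor, read 10.99 to 11.34 in P2 and 12.92 to 13.37 in P3 (1.99 ± 0.21, adjusted p = 1.0e-05). In bile acid handling 8 of 20 genes fell and 4 rose. Cyp7a1, the rate-limiting enzyme, rose by 2.77 ± 0.40, with readings of 12.63, 12.76, 10.63 and 12.49 in P3, while Cyp8b1 (-2.07 ± 0.63) and Baat (-2.10 ± 0.35), of later steps, fell. The uptake carriers Slco1b2 (-3.12 ± 0.48), Slc10a1 (-2.79 ± 0.62) and Slco1a4 (-2.54 ± 0.25) fell. Abcc3, which exports conjugates back to blood, rose by 2.46 ± 0.34.

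**Figure D4:**
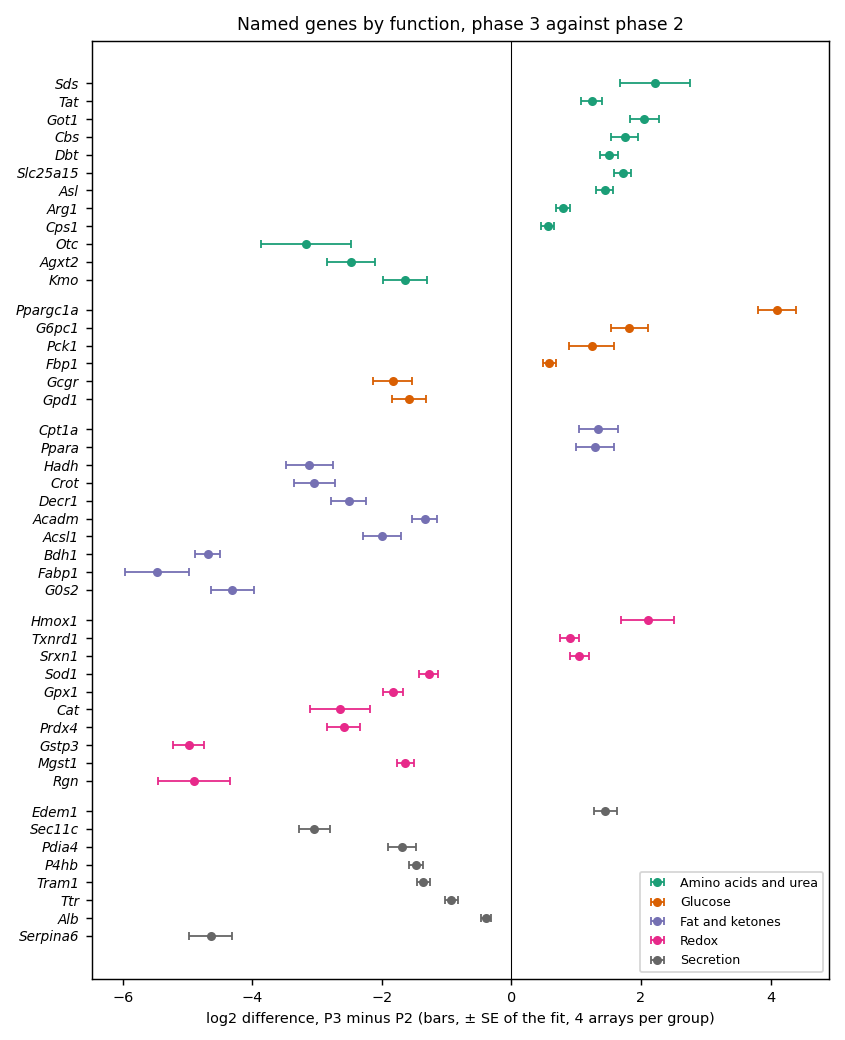
Log2 difference P3 minus P2 of named genes grouped by function, with bars of ± 1 SE of the fit and 4 arrays per group. In the urea and amino acid group Otc, Agxt2 and Kmo lie opposite to the rest, in the fat group Cpt1a and Ppara, in the redox group Hmox1, Srxn1 and Txnrd1, and in the secretion group Edem1.

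Enzymes against reactive oxygen leaned downwards: 16 of 35 fell and 5 rose, 3 with the P2 and P3 arrays fitted alone, with a median of -0.53. Cat, catalase, read 12.19, 11.92, 12.15 and 11.51 in P2 and from 7.43 to 10.42 in P3, so that all P3 livers were lower but by unequal steps (-2.65 ± 0.46, adjusted p = 5.5e-04). Gpx1, the selenium peroxidase of cytosol, stood at 12.64 to 13.24 in P2 and 10.80 to 11.54 in P3, and Sod1 at 11.36 to 11.63 and 10.10 to 10.58, both without overlap. Prdx1, a thiol peroxidase, varied widely among livers, with 7.09 to 9.05 in P2 and 3.05, 2.14, 5.11 and 2.91 in P3 (-4.62 ± 0.82). Sod2 read 9.64 to 9.78 in P2 and 8.74 to 9.16 in P3, without overlap, and was called with those arrays fitted alone. In the fit of all 16 arrays its fall (-0.75 ± 0.24, adjusted p = 0.032) was not called without P2 replicate 1, 2, 3 or 4 or P3 replicate 2, 3 or 4. The fed livers, which share in the estimate of the spread, had an SD of 0.69, against 0.07 in P2 and 0.18 in P3. The ascorbate pathway, which rats keep and primates lack, fell at Rgn and at Gulo (-1.77 ± 0.29), its last enzyme. The rises included Hmox1, heme oxygenase, which read 6.91 to 7.72 in P2 and 8.61, 8.49, 10.64 and 10.12 in P3 (2.10 ± 0.41), and Srxn1, sulfiredoxin (1.05 ± 0.14). Nfe2l2, the regulator of many of these genes, was not called (0.17).

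Conjugating and oxidizing enzymes for foreign compounds leaned downwards. Among glutathione transferases 8 of 16 fell and 1 rose, among them Gstt1 (-2.08 ± 0.15), at 7.94 to 8.27 in P2 and 5.78 to 6.15 in P3. The riser Gsto2 (0.39 ± 0.12) lost its call without P2 replicate 2 or 3 or without P3 replicate 1 or 4. Among cytochromes P450 and partners 10 of 19 fell, among them Cyp1a2 (-2.64 ± 0.50), and 2 rose. Cyp1a1 rose by 0.82 ± 0.28 (adjusted p = 0.048). Their electron donor Por rose by 2.29 ± 0.29, from 10.75, 10.32, 9.95 and 8.79 to 12.16 to 12.35. Of 18 oxidases that release hydrogen peroxide 5 were lower and 3 higher (5 higher after quantile normalization). After Hao1, the falls were in Dao, D-amino acid oxidase (-3.29 ± 0.37), Hao2 (-3.21 ± 0.23), Nox4 (-3.05 ± 0.43) and Maob (-1.89 ± 0.40). In heme and iron handling 7 of 18 genes fell and 2 rose (Hmox1 and Slc11a2), and 11 fell with the spread of the array as covariate. The largest fall was that of Alad, of the second step of heme synthesis, which stood at 7.90 to 8.07 in P2 and 6.14 to 6.63 in P3 (-1.59 ± 0.12, adjusted p = 5.3e-07).

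Respiratory chain and ATP synthase genes were divided: 12 of 41 fell and 7 rose, and the median of -0.13 was 0.04 after quantile normalization. The risers included Ndufs1 (1.12 ± 0.23), Uqcrc1 (0.64 ± 0.15), Sdha (0.57 ± 0.18) and Atp5f1a (0.44 ± 0.09). The fallers included Atp5me (-1.50 ± 0.21), Ndufa6 (-1.06 ± 0.17) and Uqcrq (-0.82 ± 0.17). With the trend in gene length taken out, 7 rose and 14 fell. In the citric acid cycle and pyruvate dehydrogenase 9 of 22 rose and 4 fell, with a median of 0.36. The NAD-linked isocitrate dehydrogenase subunit Idh3a read 7.65, 7.67, 7.40 and 6.76 in P2 and 9.69, 9.29, 9.45 and 9.98 in P3, a 4.69-fold rise (adjusted p = 3.5e-06). The NADP-linked forms went down, Idh1 by 2.05 ± 0.32 and Idh2 by 1.24 ± 0.27. Among the P3 livers Idh1 was lowest in replicate 3, at 7.72 against 9.59 to 9.65.

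Folding and translocation in the endoplasmic reticulum were lower in 19 of 30 genes and higher in 2, with a median of -0.86. Sec11c, a catalytic subunit of signal peptidase, read 8.48, 8.53, 8.74 and 9.55 in P2 and 5.67 to 5.96 in P3 (8.22-fold, adjusted p = 5.3e-07). P4hb, protein disulfide isomerase, fell by 1.47 ± 0.11, Tram1, of the translocon, by 1.36 ± 0.10 and Calr, calreticulin, by 1.21 ± 0.16. Edem1, which sends misfolded glycoproteins to degradation, rose by 1.45 ± 0.18. Hspa5 (-0.10) and Xbp1 (-0.18), the main chaperone and a regulator of the unfolded protein response, were not called.

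Secreted products of the liver also fell. Of 28 complement and coagulation genes 20 fell and none rose (median -1.10), and 11 fell without P3 replicate 4, 8 with the P2 and P3 arrays fitted alone. C9, of the membrane attack complex, stood at 11.50 to 11.79 in P2 and 9.69, 9.95, 8.11 and 7.85 in P3 (-2.76 ± 0.35, adjusted p = 4.6e-05). Mbl1, a mannose-binding lectin, fell by 3.14 ± 0.54 and F13b, a subunit of coagulation factor XIII, by 2.62 ± 0.47. Of 29 plasma carriers and acute phase genes 12 fell and none rose (median -0.34). Alb fell by 0.39 ± 0.08 and Ttr, transthyretin, by 0.93 ± 0.10. Fga (-0.12), Hp (-0.29) and Crp (-0.24), acute phase proteins, were not called.

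Genes of growth arrest and the p53 response rose in 11 of 22 cases and fell in 2. Cdkn1a, the cell cycle inhibitor p21, read 7.46, 8.87, 8.80 and 7.24 in P2 and 9.96 to 10.73 in P3 (2.26 ± 0.41, adjusted p = 8.7e-04). Tp53inp1, an autophagy and p53 partner, rose by 3.16 ± 0.20 and Klf6 by 2.91 ± 0.28. Fas, the death receptor, fell by 1.19 ± 0.22, and Gadd45a (-0.24) and Mdm2 (0.33) were not called. Cell cycle genes stayed close to the background, with 3 of 22 higher (Mcm7, Pcna and Mcm2) and a median of -0.07. Mki67 (-0.06), Top2a (-0.08) and Cdk1 (-0.11) were not called. Ccnd1 (-0.76 ± 0.26, adjusted p = 0.047), cyclin D1, overlapped between phases and was not called without any 1 of 6 arrays.

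In the activin family the inhibitor follistatin rose and 2 ligand subunits fell. Fst, follistatin, which traps activins, read 3.82 to 4.02 in P2, below the array median, and 8.73, 7.82, 8.55 and 8.96 in P3 (4.64 ± 0.18, adjusted p = 2.7e-10). Inhbc, an activin subunit of hepatocytes, fell and read 8.62, 8.69, 9.52 and 8.51 in P2 and 5.44, 5.34, 4.72 and 4.83 in P3 (13.5-fold, adjusted p = 4.9e-08), and Inhbe, another, fell by 2.84 ± 0.45. Inhba (-0.62) and Inhbb (-0.32), the subunits of activins A and B, were not called. The receptor gene Acvr1b rose by 1.02 ± 0.17. In all 5 of 24 genes of this family rose (20.8%) and 2 fell (8.3%), shares close to the background. The median was 0.17, or -0.01 after quantile normalization.

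Proteolysis genes differed in parts. In the proteasome 6 of 28 genes rose (21.4%), by up to 0.99 (Psmd12), and 3 fell (10.7%). These shares were close to the 17.5% and 10.0% of all genes. The falls in Psmb8 (-1.76 ± 0.20) and Psmb9 (-1.73 ± 0.20), subunits of the immunoproteasome, were the largest. The count of falls was 5 without P2 replicate 1 or with array weights, 6 with the length trend taken out and 7 without P3 replicate 3. In autophagy and lysosome 10 of 28 rose and 4 fell, 2 with the P2 and P3 arrays fitted alone. Map1lc3b, the LC3 protein of autophagosomes, read 10.20 to 10.62 in P2 and 12.03 to 12.51 in P3, a 3.39-fold rise (adjusted p = 9.0e-06). Ulk1, the starting kinase, rose by 1.04 ± 0.23, with P3 replicate 3 inside the P2 range. The cathepsins Ctsc (-1.26 ± 0.24) and Ctsh (-1.11 ± 0.23) fell and Ctsl rose by 0.84 ± 0.17.

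Of 16 clock genes 7 rose and 1 fell. Bhlhe40 rose by 2.35 ± 0.28, Cry2 by 2.01 ± 0.31 and Per1 by 1.66 ± 0.21, all 3 repressors of the clock. Nr1d1 read 5.21 to 5.94 in P2 and 7.33 to 7.86 in P3 (2.18 ± 0.57, adjusted p = 0.012). Rora, an activator, rose by 1.87 ± 0.23, and Npas2, another, was the 1 member that fell (-0.42 ± 0.12). Bmal1 (0.84), Clock (0.70) and Dbp (0.41) were not called. The hour of sampling is not among the labels, and its part in these differences was not tested. Among 28 nuclear receptors 9 rose and 5 fell (3 fell without P2 replicate 1 or 3, without P3 replicate 2 or 4, with arrays centred on their medians, or with the P2 and P3 arrays fitted alone). Nr5a2 rose by 1.81 ± 0.22 and Esrra by 1.58 ± 0.17. Nr1i3, the xenobiotic receptor CAR, fell by 2.60 ± 0.53 and Nr1h3, the oxysterol receptor, by 1.58 ± 0.20.

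By position in the lobule, 10 of 13 genes known from periportal hepatocytes rose and 1, Cyp2f4, fell. Of these at least Sds, Sdsl, Asl, Arg1 and Pck1 are also in the lists of amino acid, urea and glucose enzymes. Of 12 pericentral genes 5 fell and 3 rose. Lect2 read 9.50 to 10.21 in P2 and 7.52 to 8.06 in P3 (-1.97 ± 0.20), while Slc1a2 and Oat (1.13 ± 0.23) rose and Cyp2e1 (-0.17) was not called.

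Re-fed livers were set beside fed livers, a comparison that shares no array with P3 against P2 but uses the same estimate of the spread. In it 467 genes were called (3.53%), 381 higher (2.88%) and 86 lower (0.651%) in re-fed livers. After quantile normalization the split was 190 higher and 162 lower. Of the 2308 genes higher in P3 than in P2, 121 were also higher in re-fed than in fed livers (5.24% of the first list and 31.8% of the second) and 16 were lower (0.693% and 18.6%). Of the 1324 lower in P3, 72 were higher in re-fed livers (5.44% and 18.9%) and 21 lower (1.59% and 24.4%).

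Several genes of large difference between the phases were not called between re-fed and fed livers. Car3 averaged 11.79 in re-fed and 12.39 in fed livers, Fabp1 12.06 and 11.91, and Gadd45b 5.27 and 5.42. Dhrs7l1, a short-chain dehydrogenase, was still low: after a fall of 5.88 ± 0.68 between the phases, it averaged 6.04 in re-fed and 10.47 in fed livers (adjusted p = 0.0028). Slc22a8, an organic anion carrier, fell by 3.50 ± 0.34 between the phases and read 8.44, 8.85, 8.12 and 9.09 in re-fed livers, all below the lowest fed liver at 10.38. Hsd17b2, which inactivates sex steroids, passed beyond the fed level: it read 8.70, 7.94, 8.45 and 8.49 in P2, 4.13, 3.76, 4.40 and 4.24 in P3, and 10.27 to 11.17 in re-fed livers against 7.99 to 8.37 in fed ones (2.55 ± 0.20, adjusted p = 7.2e-06). Coq10b and Por, which rose in P3, were still 2.14 ± 0.34 and 2.00 ± 0.29 above fed in re-fed livers. Pck1 averaged 8.33 in re-fed and 11.51 in fed livers (-3.18, adjusted p = 2.4e-04), and Igfbp1 and Cdkn1a were likewise lower than in fed livers, by -1.93 and -2.27.

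**Figure D5:**
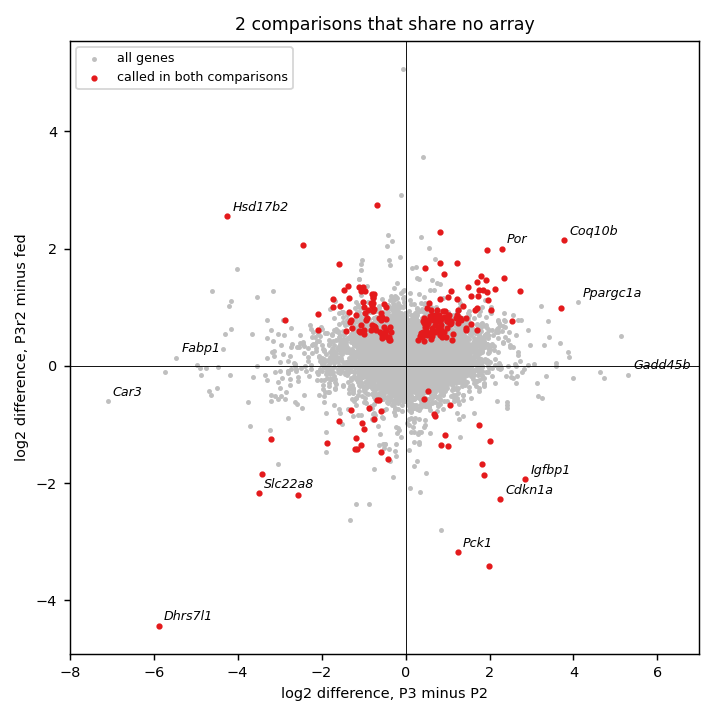
Log2 difference P3 minus P2 (x axis) against P3r2 minus fed (y axis) for 13215 genes, 1 point per gene, with the genes called in both comparisons in red. The comparisons share no array. Car3, Fabp1 and Gadd45b are far from 0 on the x axis and near 0 on the y axis, Dhrs7l1 and Slc22a8 are low on both, and Hsd17b2 is low on the first and high on the second.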

How the data were processed

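The authors deposited log2 signals per transcript cluster for all 16 arrays in 1 table, and the submitters' processing notes name GCOS 1.4 and Expression Console 1.1. The sources used here do not give background correction or summarisation, and base 2 was inferred from the range of values (0.84 to 13.63). Values were used as deposited. Arrays have no read depth, and the number of animals limits the precision.

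Of 19418 rows 533 with identifiers below 7000000 were left out. Of the 18885 tested, 13327 had 1 symbol in the array's probe table, 620 several and 4938 none. The row of highest mean stood for a gene. Symbols were updated through RefSeq (GRCr8; 99.3% matched). The files name no genome build.

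A model with 1 mean per group over 16 arrays was fitted with limma 3.58.1 in R 4.3.3 (contrasts P3 minus P2 and P3r2 minus fed, eBayes, two-sided, Benjamini-Hochberg over 18885 rows, threshold 0.05). In simulated data of the first comparison 50 genes were changed per fold, all drawn from genes above the median signal. Of these 32% were called at 1.5-fold, 80% at 2-fold and 96% at 4-fold. Far fewer genes were changed there than were called in the real data, and no dim ones, so these shares may not hold for the real comparison. Named genes are the 12 largest rises and falls whose groups do not overlap, the called members of each list with the largest difference (at most 5), and 45 key genes of which 41 had a row. Other list members, and Slc25a25, Utp20, Slc22a8 and Hsd17b2, fall outside that rule and were chosen after their values were seen. The members and lists were chosen with earlier results of these data known. The 49 lists hold 1172 genes, 865 with a row. P-values set a difference against the spread between animals, estimated from all 16 arrays together. The groups were not equally spread: of the 53 genes lower by at least 8-fold, 41 had a larger SD in P3 than in P2. Alternatives were quantile normalization, median centring, trend and robust eBayes, array weights, 2 groups alone, brighter rows, a threshold of 0.01, mean of rows, a replicate block, the spread of the array as covariate, the length trend taken out, and arrays left out. Replicate numbers did not pair the samples (correlations of deviations -0.25 to 0.17 between P3 and P2 and -0.4 to 0.0 between re-fed and fed livers). Figures were drawn with matplotlib 3.10.9.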

Additional observations from a re-analysis of the deposited data

Results flagged for a closer look

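A named gene was singled out where 1 of the 4 livers of a phase stood far from the other 3, by a gap beyond Dixon's critical value for 4 samples. This was met in 25 of 414 groups (6.04%), and chance flags about 1 in 20 groups. P2 replicate 4 was the liver that stood apart in 9 and P3 replicate 3 in 9. The values are log2 signals.

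P2 replicate 4 was the lowest of its group for Ahsg at 13.22 (others 13.35 to 13.38), Gpd1 at 10.04 (others 10.77 to 10.84), Igf1 at 10.90 (others 11.33 to 11.41), Ncl at 5.46 (others 7.29 to 7.59), Pck1 at 11.10 (others 11.86 to 11.91), Socs3 at 2.49 (others 5.31 to 5.73) and Utp4 at 7.07 (others 7.93 to 8.07). It was the highest for Fst at 4.02 (others 3.82 to 3.85) and Ttr at 13.39 (others 13.28 to 13.29).

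P3 replicate 3 was the lowest of its group for Alb at 12.98 (others 13.15 to 13.18), Cyp7a1 at 10.63 (others 12.49 to 12.76), Idh1 at 7.72 (others 9.59 to 9.65), Irs1 at 8.02 (others 8.82 to 8.98), Ndufs1 at 9.43 (others 10.31 to 10.47), Ogdh at 9.57 (others 10.68 to 10.84) and Uros at 5.68 (others 6.18 to 6.23). It was the highest for Eci1 at 8.17 (others 7.25 to 7.33) and Tgif1 at 9.90 (others 9.62 to 9.66).

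Other livers stood apart for Bdh2 at 6.52 in P2 replicate 2 (others 6.93 to 6.98), Gk at 7.70 in P3 replicate 2 (others 7.98 to 8.03), Gzma at 4.15 in P2 replicate 1 (others 4.48 to 4.51), Myc at 6.30 in P2 replicate 2 (others 5.29 to 5.42), Nr1d1 at 7.33 in P3 replicate 2 (others 7.79 to 7.86), Plin2 at 9.56 in P2 replicate 3 (others 8.64 to 8.80) and Pvr at 7.95 in P3 replicate 2 (others 9.14 to 9.34).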

How the results depend on the processing

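No gene called between P3 and P2 was called in the opposite direction under any setting tried. The counts of 2308 genes higher and 1324 lower were 1831 to 2610 and 1100 to 1375 with 1 array left out. At a threshold of 0.01, 785 genes were lower. With the P2 and P3 arrays alone 1889 rose and 1010 fell, after quantile normalization 2180 and 1645, and with each array centred on its median 2481 and 1154. The replicate block gave 2213 and 1214, although replicate numbers did not pair the samples. Between re-fed and fed livers the 381 higher and 86 lower became 237 and 244 with the spread of the array as covariate, 1034 and 238 with array weights, 190 and 162 after quantile normalization, and 114 and 39 at 0.01. They became 312 and 68 with the block, and 159 were lower with fed replicate 2, P2 replicate 4 and P3 replicate 3 left out together. With 1 array left out they ranged from 157 to 335 and from 50 to 94. The cause of these shifts was not tested. Of 207 named genes 199 were called, 182 of them under every setting, and 0 reversed. With 4 animals per group small changes are often missed.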

Other observations

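Rows that carry no single gene name also differed between the phases. Of the 4938 rows with no symbol 190 were higher and 207 lower in P3, and of the 620 rows with several symbols 39 were higher and 74 lower. These rows stay unnamed here.

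Some genes outside the groups described above were among those with a large difference. Car12, another carbonic anhydrase, read 3.48 to 3.88 in P2 and 6.97, 6.25, 7.01 and 8.83 in P3, a rise of 3.59 ± 0.40, in contrast to the fall of Car3. Kcnma1, a potassium channel opened by calcium, rose by 3.30 ± 0.32. Dpys, of pyrimidine breakdown, fell by 4.48 ± 0.65, and among its P3 readings of 8.03, 8.20, 4.00 and 5.55 replicate 3 was again the lowest. These 3 genes were chosen after their values were seen.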
